A study of Caenorhabditis elegans with 4 samples.

Results

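Short-chain dehydrogenases, aldehyde dehydrogenases and flavin monooxygenases were examined in Caenorhabditis elegans treated with remofuscin. A gene was taken as a member when a probe of the array carried an identifier that leads to a symbol starting with dhs-, alh-, fmo-, sodh- or stdh-. This gave 52 genes with 106 probes, out of 19814 genes with a named probe. The families were dhs (29 genes, 46 probes), alh (13 genes, 50 probes), fmo (5 genes, 5 probes), stdh (4 genes, 4 probes) and sodh (1 gene, 1 probe). The gene table holds 53 such genes, and dhs-2 is the one for which no probe was named.

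The treated group was wild-type (N2) worms kept for 14 days from the start of adulthood on plates with 200 µM remofuscin (soraprazan in the labels), and the negative control (NC) was N2 worms kept likewise on plates with 0 µM. Both groups were fed E. coli OP50 at 25 °C and carried no mutation or transgene. The study's methods name a peptone-free medium for maintaining worms, and plates of nematode growth medium for the worms of the arrays. There were 2 independent experiments, called experiment 1 and experiment 2 here, each with 1 array per group, so that each group holds 2 arrays of RNA from pooled whole worms. The sources used here name a solvent control and a drug against progeny for the lifespan plates and do not say whether the plates of this experiment held them. In whole worms, fewer cells of a type and less RNA per cell cannot be told apart.

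The members are enzymes that oxidize or reduce small molecules, outside the cytochrome P450 family. Short-chain dehydrogenases (dhs) move hydride between NAD(P) cofactors and alcohols or ketones, and their substrates include steroids, fatty acid intermediates and foreign carbonyl compounds. Aldehyde dehydrogenases (alh) turn reactive aldehydes into acids, and several of them are dedicated steps in the breakdown or synthesis of an amino acid. Flavin monooxygenases (fmo) add oxygen to nitrogen or sulfur atoms of foreign and endogenous compounds, and in C. elegans fmo-2 is best known as a gene of hypoxia, fasting and longevity. The stdh genes encode relatives of steroid dehydrogenases, and sodh-2 encodes an alcohol dehydrogenase of the sorbitol dehydrogenase type.

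All 4 arrays lay on 1 slide, and between 63.3% and 66.6% of the spots on an array were called well above background by the scanner software, with 0 saturated spots. Signals are given after each array was scaled to its 75th percentile, in units in which that percentile equals 692. A gene is represented by its brightest probe, and its fold change divides the geometric mean of remofuscin-treated worms by that of NC worms. Differences were tested with limma over all probes with a call of well above background from at least 2 arrays. Of the 52 members, 48 passed that filter (29 dhs, 12 alh, 5 fmo, 1 sodh and 1 stdh), among 14756 genes that did. A gene was counted as upregulated or downregulated at a limma p under 0.05 before adjustment and a ratio of 2 or more, or of 0.5 or less. These limits take their thresholds from the study's methods, which do not name limma. The adjusted p is given for the genes described.

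Most members were measurable in NC worms. On both NC arrays, 46 of the 52 members (88.5%) were well above background, compared with 14175 of all 19814 genes (71.5%). By family this held for 28 of 29 dhs genes, 12 of 13 alh genes, 5 of 5 fmo genes, 1 of 4 stdh genes and 0 of 1 sodh gene. The probes of the stdh family other than stdh-1 lay at the background in NC worms, and sodh-2 was well above it on 1 of the 2 NC arrays. Mean NC signals spanned 6.74 to 17025 among dhs probes, 8.13 to 25519 among alh probes, 48.6 to 403 among fmo probes and 2.53 to 2263 among stdh probes. Because probes differ in how well they bind, these ranges do not rank one gene above another. On no array were alh-2, stdh-3 and stdh-4 well above background.

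With remofuscin, members changed in both directions. Of the 48 tested members, 31 had a higher and 17 a lower mean signal, with a median log2 fold change of 0.11 beside 0.00 over all tested genes. The log2 change of 25 members (52.1%) was within 0.25 of zero, beside 57.1% of all tested genes. The share with a higher mean was 64.6% of members and 50.1% of all tested genes. By family, 21 of 29 dhs genes were higher with a median of 0.21, 6 of 12 alh genes with a median of -0.01, and 2 of 5 fmo genes with a median of -0.03. Single arrays moved these values. Without the NC array of experiment 2, 22 of 48 members were higher with a median of -0.02, and without the remofuscin array of experiment 1, 24 of 47 with a median of 0.00. Without the NC array of experiment 1 the median over members was 0.45, and without the remofuscin array of experiment 2 it was 0.36. The dhs median was 0.51 without the NC array of experiment 1 and -0.09 without the NC array of experiment 2. With spots marked as outliers kept, it was 0.13.

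**Figure D1:**
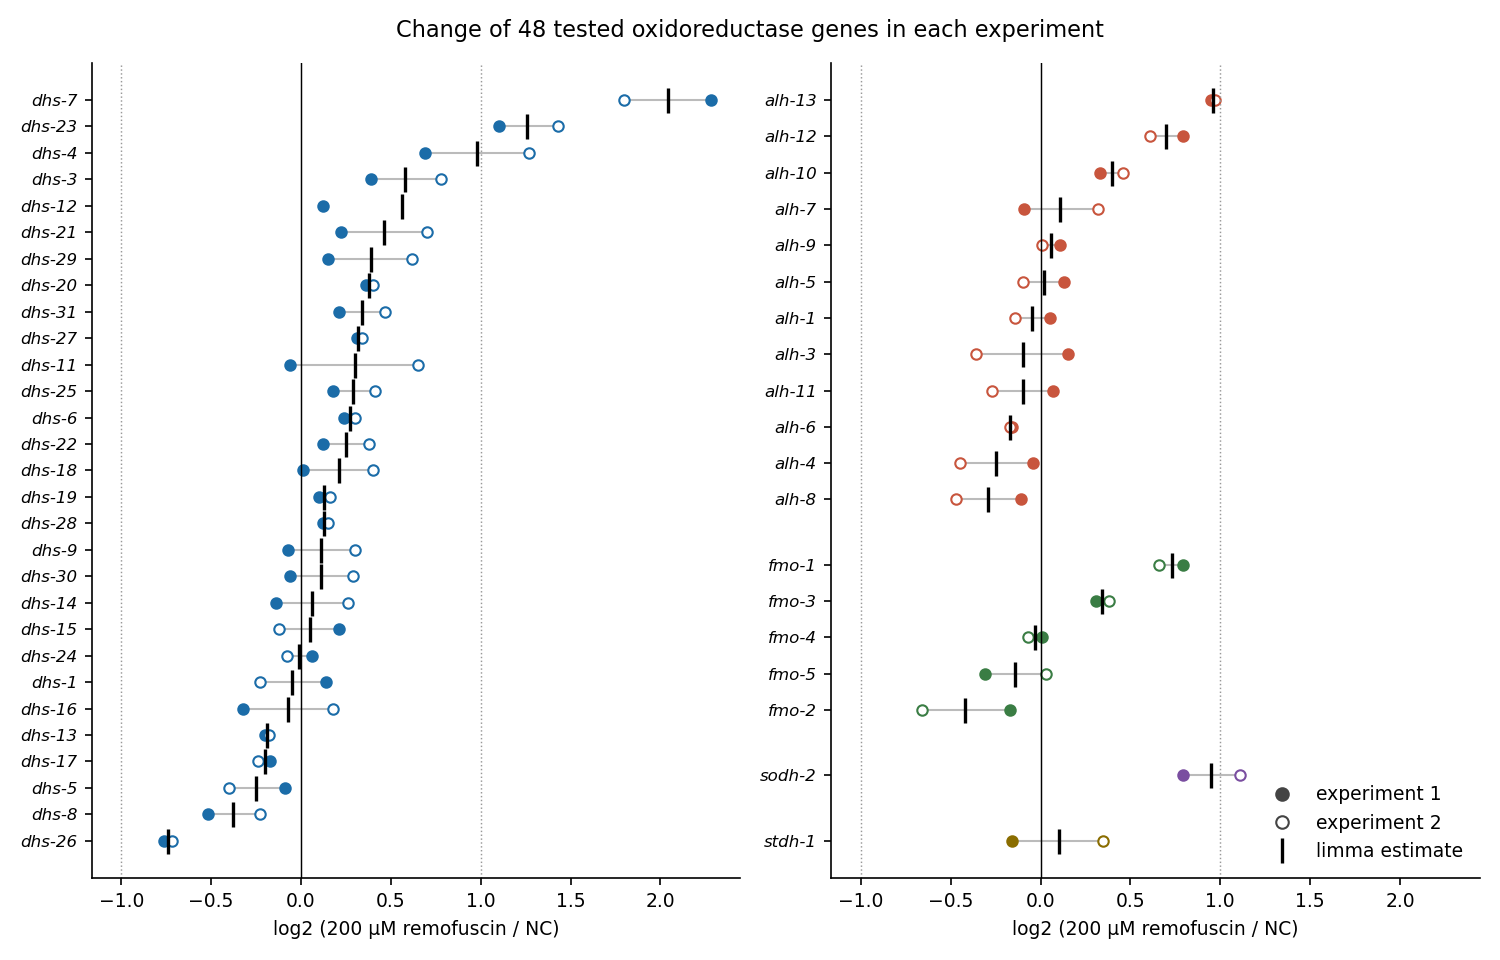
Log2 ratio of 200 µM remofuscin over NC for each of the 48 tested members, in rows by family and ordered by the limma estimate. Filled points are experiment 1, open points experiment 2, black ticks the limma estimate over the arrays, and dotted lines a fold change of 2 in either direction. Only dhs-7 and dhs-23 have both points beyond the right dotted line, and no member has a point beyond the left one.

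At the limits, 2 members were upregulated, dhs-7 and dhs-23, against a background of 2.23% of all tested genes. Of these, dhs-7 passed the filter through the treated arrays alone, here and in the counts that follow. Under a filter asking for all 4 arrays, only dhs-23 was upregulated at the limits. The count of downregulated members was 0, against 0.895% of all tested genes. By the limma adjusted p, 0 members passed 0.05 in either direction, beside 0.474% of all tested genes higher and 0.0745% lower. At an unadjusted limma p under 0.05, 4 members were higher (dhs-7, dhs-23, sodh-2 and alh-13) and 0 were lower, beside 2.45% and 1.1% of all tested genes. The t-test named in the methods put 0 higher and 3 lower (dhs-26, dhs-17 and alh-6) at an unadjusted p under 0.05, beside 1.78% and 2.17%. With the experiment as a block, 5 members were higher at an adjusted p under 0.05 (dhs-7, dhs-23, dhs-4, alh-13 and sodh-2), beside 3.72% of all tested genes, and 0 were lower, beside 1.88%. The block gives every probe 1 common standard deviation, and the small p values it yields rest on that.

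On 8 members (16.7%) both remofuscin arrays lay above both NC arrays, beside 9.35% of all tested genes. Named here after their values were seen, they were dhs-4, dhs-7, dhs-23, alh-10, alh-12, alh-13, fmo-1 and sodh-2. Among them, dhs-7 entered the tests through its treated arrays alone. On 5 members (10.4%) both remofuscin arrays lay below both NC arrays, beside 11% of all tested genes. These were dhs-5, dhs-17, dhs-26, alh-6 and fmo-2. With 2 arrays against 2, an exact permutation test of a single gene cannot give a two-sided p below 0.33.

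The short-chain dehydrogenase with the largest change was dhs-7, for which no role is given here. Its signals were 39.2 and 18.9 in remofuscin-treated worms of experiments 1 and 2, against 8.06 and 5.41 in NC worms. Both remofuscin arrays were well above background and neither NC array was, so that dhs-7 passed the filter through the treated group alone. Since NC was not detected, the fold rests on NC signals below the detection call. These lay above the dimmest signal that counted as detected on those arrays, so none was raised. The ratio of the measured means was 4.12, which is an estimate and not a lower bound, with 4.86 in experiment 1 and 3.48 in experiment 2. The log2 change was 2.04 ± 0.47 (SE; limma adjusted p = 0.258), and the blocked adjusted p was 4.41e-12. After normexp background correction the log2 change was 0.36, which ended the call, and without the remofuscin array of experiment 1 it was 1.51.

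For dhs-23, another gene for which no role is given here, the signals were 159 and 99.4 in remofuscin-treated worms, against 74.2 and 36.9 in NC worms. All 4 arrays were well above background, the groups did not overlap, and within the experiments the level was 2.14-fold and 2.69-fold that of NC. The log2 change was 1.26 ± 0.47 (SE; limma adjusted p = 1.0), and the blocked adjusted p was 0.000129. It was below the fold limit after normexp correction, at 0.76, without the NC array of experiment 2, also at 0.76, and without the remofuscin array of experiment 1, at 0.92.

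Among the other dhs genes, dhs-4 stood just under the fold limit. The signals of dhs-4 were 201 and 152 with remofuscin, against 125 and 63.0 in NC worms, so that the lower treated array still exceeded the higher NC array. This was 1.97-fold (log2 change 0.98 ± 0.45, SE; limma adjusted p = 1.0), with a blocked adjusted p of 0.00792. The size of the change differed between the experiments, 1.61-fold in experiment 1 and 2.41-fold in experiment 2, and the NC array of experiment 2 had the lowest signal of the 4. The log2 change of dhs-4 was 0.49 without that array and 0.64 after normexp correction.

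Lipid droplets and peroxisomes hold some of the better known dhs products. The enzyme encoded by dhs-3 sits on the lipid droplets of the intestine. Its signals were 4784 and 3292 with remofuscin, against 3661 and 1916 in NC worms, a 1.5-fold difference (limma adjusted p = 1.0) with overlapping groups. The change of dhs-3 was 1.31-fold in experiment 1 and 1.72-fold in experiment 2, and its second probe gave a log2 change of 0.38 beside 0.58 for the brightest. Another protein of lipid droplets, DHS-19, came from a gene with signals of 2299 and 1584, against 2140 and 1419 in NC worms, or 1.1-fold. Of the 9 other lipid droplet genes on the list used here, among them plin-1 (perilipin, 0.852-fold), lid-1 (1.22-fold) and dgat-2 (0.971-fold), 4 were higher and 5 were lower, and 0 passed the limits, with a median log2 change of 0.00.

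The dhs-28 product is a peroxisomal enzyme that shortens the side chains of ascaroside pheromones. Its signals were 1030 and 807 with remofuscin, against 950.3 and 726 in NC worms, a ratio of 1.08 in experiment 1 and 1.11 in experiment 2. The 7 probes of dhs-28 gave log2 changes between -0.02 and 0.35. Among 7 other tested genes of that pathway, 5 were higher and 2 were lower, with a median of 0.20. The acyl-CoA oxidase gene acox-1.3 had 138 and 133 with remofuscin, against 67.0 and 79.5 in NC worms (1.85-fold, limma adjusted p = 1.0, blocked adjusted p = 0.0222), and daf-22, the thiolase that ends each round of shortening, was at 1.19-fold. None of the 7 passed the limits, and with the block acox-1.3 alone had an adjusted p under 0.05.

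A role in dafachronic acid synthesis is known for dhs-16, which oxidizes the 3-hydroxyl of the steroid precursor of this hormone. The dhs-16 probe was dim, with 20.2 and 16.8 in remofuscin-treated worms, of which 1 array was well above background, and with 25.1 and 14.8 in NC worms, where both were. The ratio of 0.953 combined 0.803 in experiment 1 with 1.13 in experiment 2, so the direction differed between the experiments. Of the other 8 genes listed for the pathway, 4 were tested, 1 of them higher and 3 lower, with a median log2 change of -0.09. The Rieske oxygenase gene daf-36 had 136 and 69.0 with remofuscin, against 92.9 and 50.1 in NC worms, while the receptor gene daf-12 had 62.4 and 111, against 66.0 and 185. The P450 gene daf-9 and hsd-1, hsd-2 and hsd-3 were well above background on no array.

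The lowest ratio of the dhs family was that of dhs-26, with signals of 79.0 and 69.3 in remofuscin-treated worms, against 134 and 114 in NC worms. It was 0.598-fold (log2 change -0.74 ± 0.38, SE; limma adjusted p = 1.0), with 0.589 in experiment 1 and 0.607 in experiment 2, and its second probe gave a log2 change of -0.82. The groups of dhs-26 did not overlap, and its log2 change was -0.43 after normexp correction. The other 21 dhs genes had log2 changes between -0.38 (dhs-8) and 0.56 (dhs-12), 15 of them higher and 6 lower, the lowest unadjusted limma p being 0.347. For dhs-12 the spot of the remofuscin array of experiment 2 was marked as an outlier and left out, so that its value sets 1 treated array against 2 NC arrays. Within experiment 1, and likewise with the block, the log2 change of dhs-12 was 0.12. In 7 of these 21 genes the experiments had opposite signs, as for dhs-11, at 0.961-fold in experiment 1 and 1.57-fold in experiment 2. For dhs-12, with no value in experiment 2, the signs could not be compared.

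**Figure D2:**
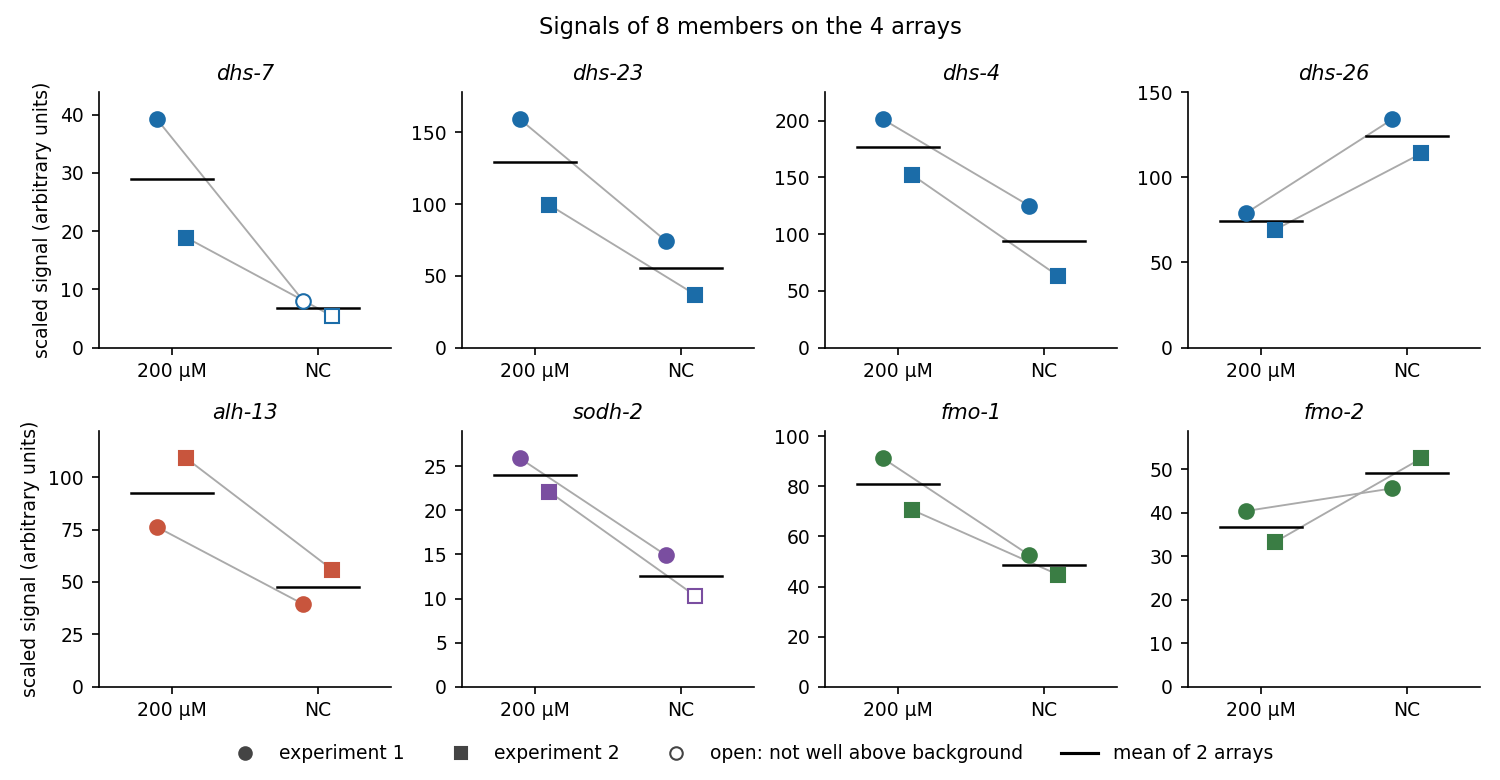
Scaled signal on each array (arbitrary units, axes from 0) of 8 members, with 200 µM remofuscin left of NC, circles for experiment 1, squares for experiment 2, open symbols where the spot was not well above background, grey lines joining the arrays of 1 experiment and black lines at the mean of 2 arrays. In dhs-7, dhs-23, dhs-4, alh-13, sodh-2 and fmo-1 both treated arrays lie above both NC arrays, and in dhs-26 and fmo-2 both lie below.

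Among aldehyde dehydrogenases the clearest difference was in alh-13, the homologue of the enzyme that makes pyrroline-5-carboxylate, the precursor of proline. The signals of alh-13 were 76.2 and 109 with remofuscin, against 39.4 and 55.8 in NC worms. That was 1.93-fold in experiment 1 and 1.95-fold in experiment 2 (log2 change 0.96 ± 0.41, SE; limma adjusted p = 1.0), with a blocked adjusted p of 0.0103. Of 4 probes for alh-13, 3 were well above background on no array, so that the difference rests on 1 probe. The log2 change of alh-13 was 0.55 after normexp correction.

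The gene alh-6, whose product oxidizes pyrroline-5-carboxylate to glutamate in mitochondria, had signals of 1458 and 1444 with remofuscin, against 1628 and 1626 in NC worms. This was 0.892-fold (limma adjusted p = 1.0), and the 7 probes of alh-6 all gave lower means, with log2 changes between -0.54 and -0.17. Of the other proline and glutamate genes on the list, 5 were tested, 4 of them higher and 1 lower, with a median log2 change of 0.31. The reductase gene pycr-1, which finishes proline synthesis, was at 1.47-fold and pycr-4 at 1.26-fold, the glutamate dehydrogenase gene gdh-1 at 1.03-fold, and prdh-1, the proline dehydrogenase that opens the breakdown, at 0.801-fold. None passed the limits or the adjusted p.

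The probe of alh-8, the methylmalonate-semialdehyde dehydrogenase that works in valine and propionate breakdown, gave 15198 and 25002 with remofuscin, against 16350 and 34687 in NC worms. Both groups were higher in experiment 2, and the ratio was 0.930 in experiment 1 and 0.721 in experiment 2 (0.819-fold, limma adjusted p = 1.0). All 19 probes of alh-8 gave a lower mean with remofuscin, with log2 changes between -0.64 and -0.18, and since they read 1 gene on the same 4 arrays they do not count as separate observations. Of 14 other tested genes of propionate and branched-chain amino acid breakdown, 6 were higher and 8 lower, with a median of -0.05. The epimerase gene mce-1 was at 1.47-fold, the carboxylase genes pcca-1 and pccb-1 at 0.847-fold and 0.866-fold, and the shunt gene hphd-1 at 0.936-fold, and acdh-1 was well above background on no array.

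Of the remaining alh genes with a known role, alh-1, alh-3 and alh-4 had means close to those of NC. For alh-1, the homologue of the mitochondrial enzyme that clears acetaldehyde, the signals were 8625 and 7930 with remofuscin, against 8358 and 8720 in NC worms (0.969-fold). For alh-3, which resembles 10-formyltetrahydrofolate dehydrogenase, they were 739.6 and 734, against 667 and 942 (0.930-fold). The fatty aldehyde dehydrogenase gene alh-4 had 3139 and 4290, against 3226 and 5880 (0.843-fold), and in both groups it was higher in experiment 2. These 3 genes overlapped between the groups. The signals of alh-12, a relative of the betaine aldehyde dehydrogenase of mammals, were 1838 and 1217 with remofuscin, against 1061 and 797 in NC worms, 1.73-fold in experiment 1 and 1.53-fold in experiment 2 (limma adjusted p = 1.0). For alh-2, of the retinaldehyde dehydrogenase type, no array was well above background, and no fold change is given. The other 5 alh genes had log2 changes between -0.10 (alh-11) and 0.40 (alh-10).

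The 5 flavin monooxygenases were all well above background on all 4 arrays. The gene with the largest rise in mean was fmo-1, with 91.2 and 70.6 in remofuscin-treated worms, against 52.6 and 44.7 in NC worms, or 1.66-fold (log2 change 0.73 ± 0.38, SE; limma adjusted p = 1.0). By contrast fmo-2 had 40.4 and 33.3 with remofuscin, against 45.6 and 52.5 in NC worms, or 0.75-fold (log2 change -0.42 ± 0.38, SE; limma adjusted p = 1.0). The ratio of fmo-2 was 0.887 in experiment 1 and 0.633 in experiment 2, so that neither experiment showed a higher level with remofuscin. Normexp correction gave log2 changes of 0.34 for fmo-1 and -0.18 for fmo-2. On the assembly, fmo-1 and fmo-2 lie in the same stretch of gene models but are not direct neighbours.

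For fmo-3 the signals were 495 and 375 with remofuscin, against 400 and 288 in NC worms, with ratios of 1.24 and 1.3 in the 2 experiments. The level of fmo-4, which worms need to cope with low salt, was 408 and 381 with remofuscin, against 406 and 400.4 in NC worms (0.979-fold). The signals of fmo-5 were 175 and 230.4, against 218 and 226, with ratios of 0.805 and 1.02. The groups of each of these 3 genes overlapped, at a limma adjusted p of 1.0 each.

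Genes known to act on fmo-2 were read from a list, which also held a target of the hypoxia pathway. Of 9 tested, 3 were higher and 6 lower, with a median log2 change of -0.08, and 0 passed the limits. The hypoxia factor gene hif-1 had 613 and 1015 with remofuscin, against 619 and 1454 in NC worms (0.831-fold), and its brake egl-9, the prolyl hydroxylase, was at 0.8-fold. The gene cysl-2, a known target of the hypoxia pathway, had 1165 and 1013, against 915 and 708 in NC worms (1.35-fold, limma adjusted p = 1.0). The nuclear receptor gene nhr-49 was at 0.944-fold and hlh-30, which encodes the worm relative of TFEB, at 0.726-fold. For comparison, the cytochrome P450 gene cyp-35C1 had 4623 and 2851 with remofuscin, against 280.2 and 215 in NC worms (14.8-fold, limma adjusted p = 0.0078).

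The alcohol dehydrogenase gene sodh-2 was dim, with 25.9 and 22.1 in remofuscin-treated worms, both well above background, against 14.9 and 10.3 in NC worms, of which only the first was. The means differed 1.93-fold (log2 change 0.95 ± 0.40, SE; limma adjusted p = 1.0), the groups did not overlap, and the blocked adjusted p was 0.0113. After normexp correction the log2 change of sodh-2 was 0.21. Its direct neighbour on the assembly is adh-1, a gene of the same enzyme type formerly called sodh-1 and thus outside the symbols used here. The signals of adh-1 were 240.5 and 314 with remofuscin, against 106 and 140.2 in NC worms, 2.25-fold (limma adjusted p = 0.92, blocked adjusted p = 0.000548). Cross-hybridization between the 2 probes was not tested. In a list of 7 other tested genes of alcohol and aldehyde metabolism, among them adh-5 (1.04-fold) and glod-4 (1.16-fold), 5 were higher and 2 lower, and 0 passed the limits.

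In the stdh family only stdh-1 was tested. Its signals were 2522 and 2179 with remofuscin, against 2822 and 1705 in NC worms, with ratios of 0.894 in experiment 1 and 1.28 in experiment 2. The probe of stdh-2 was well above background on 1 array, that of remofuscin-treated worms in experiment 1, and did not pass the filter. It read 41.8 and 15.4 with remofuscin, against 5.92 and 2.58 in NC worms. With the NC signals raised, where lower, to the dimmest detected signal, the ratio was 4.97. Since 1 of the 2 treated arrays was itself below the detection call, this ratio is not a lower bound. In a fit without the filter the limma adjusted p of stdh-2 was 0.281, and with the block it was 4.06e-13. On all arrays stdh-3 and stdh-4 stayed between 2.35 and 10.5, at the background. On the assembly stdh-3 is the neighbour of stdh-1. The related gene let-767, which encodes a reductase of fatty acid elongation and steroid metabolism, had 5071 and 5354 with remofuscin, against 5091 and 7370 in NC worms. Of 13 tested genes on a list of fatty acid elongation, synthesis and activation, let-767 among them, 5 were higher and 8 lower. Among the lower ones, pod-2 was measured on 1 treated array, and within experiment 1 its log2 change was 0.08. The elongase gene elo-6 was at 1.68-fold (limma adjusted p = 1.0).

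The comparison was then made within each experiment over the 47 members measured on all 4 arrays. In experiment 1, 30 members (63.8%) were higher with remofuscin, with a median log2 change of 0.11, beside 45.4% of all tested genes and a median of -0.03. In experiment 2 the count was again 30, with a median of 0.29, beside 52.5% of all tested genes and a median of 0.03. Higher in both experiments were 22 members, lower in both were 9, and 16 (34.0%) had opposite signs, beside 39.9% of all tested genes. Of 28 dhs genes, 18 were higher in experiment 1 and 20 in experiment 2, and of 12 alh genes 8 were higher in experiment 1 and 5 in experiment 2. The difference between the families was not tested. Across the 47 members the log2 changes of the experiments were correlated (Pearson's r 0.80, Spearman's rho 0.71), beside 0.61 and 0.33 over all tested genes. These correlations are across genes, which are not independent replicates, and the arrays share 1 slide. They include dhs-7, which had the largest change in both experiments and passed the filter through its treated arrays alone.

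**Figure D3:**
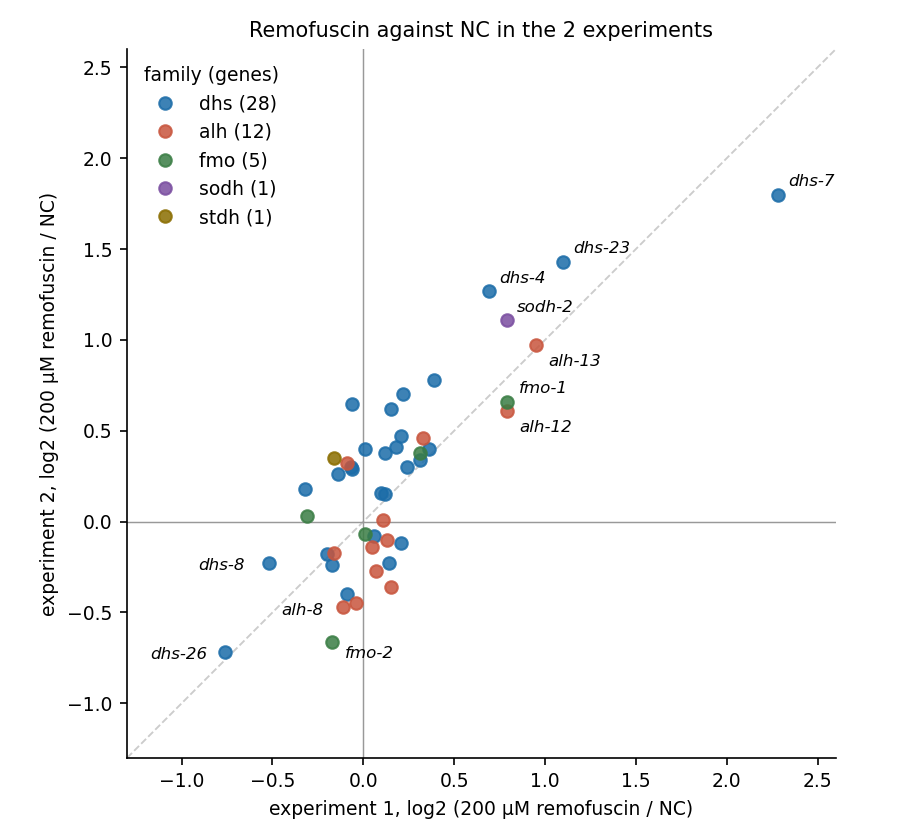
Log2 ratio of 200 µM remofuscin over NC in experiment 1 (horizontal axis) and experiment 2 (vertical axis), 1 point for each of 47 members, coloured by family, with a dashed line of equal change. The points of dhs-7, dhs-23, dhs-4, sodh-2, alh-13, alh-12 and fmo-1 lie in the upper right and dhs-26 in the lower left, while 16 members lie in the quadrants of opposite sign.

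The median of the dhs family lay further from zero between the experiments than between remofuscin and NC, a description with no test, since genes of a family are not replicates. In NC worms the median log2 difference of experiment 2 minus experiment 1 was -0.68 for dhs genes and 0.30 for alh genes, and in remofuscin-treated worms it was -0.38 and 0.08. The medians of remofuscin minus NC in experiments 1 and 2 were 0.12 and 0.30 for dhs, and 0.09 and -0.12 for alh. For alh the difference between the experiments was thus the larger one in NC worms alone. Of 28 dhs genes, 25 (89.3%) were lower in experiment 2 in both groups, against 3 of 12 alh genes (25.0%) and 54.7% of all tested genes. Examples, chosen after their values were seen, were dhs-1, with 367 in experiment 2 and 796 in experiment 1 with remofuscin and 432 and 724 in NC worms, and dhs-23, with 99.4 in experiment 2 and 159 in experiment 1 with remofuscin and 36.9 and 74.2 in NC worms. The reverse was seen for alh-8, with a log2 difference of 0.72 with remofuscin and 1.09 in NC worms, and for alh-4, with 0.45 and 0.87 in the same order. In the fmo family the median difference was -0.28 with remofuscin and -0.02 in NC worms. Across the 47 members the difference in remofuscin-treated worms was correlated with that in NC worms (Pearson's r 0.81, Spearman's rho 0.79), beside 0.74 and 0.75 over all tested genes. What differed between the experiments is not given in the labels.

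**Figure D4:**
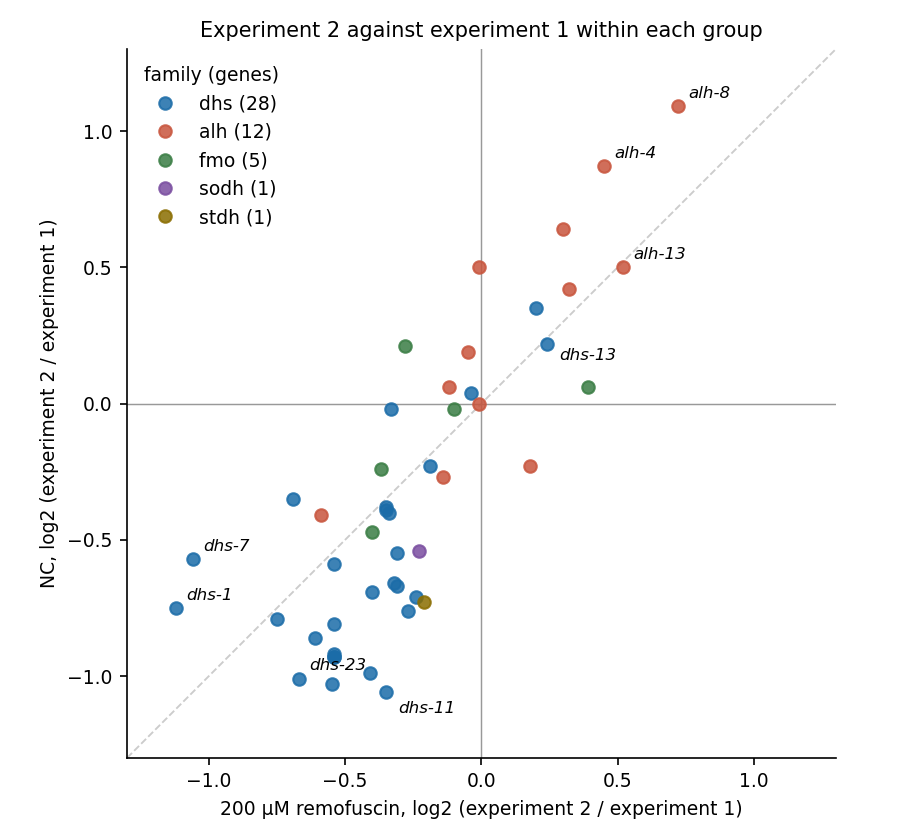
Log2 ratio of experiment 2 over experiment 1 in worms on 200 µM remofuscin (horizontal axis) and in NC worms (vertical axis), 1 point for each of 47 members, coloured by family, with a dashed line of equal difference. Most dhs points lie in the lower left, where both groups were lower in experiment 2, and alh-8 and alh-4 lie at the upper right.

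Stage and tissue genes moved beside these results, and their part in them was not tested. Of 15 tested larval and moulting genes, 9 were higher and 6 lower with remofuscin, with a median log2 change of 0.05. Of the 15, 12 were higher in experiment 1 and 7 in experiment 2. The lower ones were mlt-10, noah-2, nas-36, nas-37, lin-29 and qua-1. The summed signal of the 17 on the array was 1793 and 2297, against 1181 and 1955 in NC worms, with bli-1 well above background on no array. The cuticle collagen genes rol-6 (256 and 231 with remofuscin, against 23.5 and 13.7 in NC worms, limma adjusted p = 0.00945) and sqt-1 (limma adjusted p = 0.0042) were upregulated at the limits, as was dpy-7 at 3.83-fold. On neither NC array was sqt-1 well above background. All 5 body wall muscle genes had higher means, with summed signals of 15965 and 14275 against 9147 and 6717 in NC worms, most of it from unc-27, which was past the limits at 2.23-fold. With the block, 4 of the tested larval and moulting genes (sqt-1, rol-6, dpy-7 and sqt-3) and 2 muscle genes (unc-27 and unc-54) were higher at an adjusted p under 0.05. The intestine, where dhs-3 acts, was represented by 8 genes, 7 of them higher with a median log2 change of 0.14, with summed signals of 53110 and 62900 against 44911 and 56555 in NC worms. Of 9 germ line genes 2 were higher and 7 lower (126169 and 162237, against 125823 and 187604), and of 5 sperm genes 1 was higher and 4 lower (657 and 729, against 927 and 941). Among 10 tested embryo genes 5 were higher and 5 lower (138105 and 166532, against 154423 and 172193), with hlh-27 on no array well above background, and among 5 neuron genes 3 were higher and 2 lower (8990 and 8630, against 8899 and 9115). Between the experiments the germ line median was 0.52 higher in experiment 2 with remofuscin and 0.66 higher in NC worms, and 8 of its 9 genes were higher in experiment 2 in both groups, opposite to the dhs genes. This was not particular to the germ line. The muscle median was 0.90 higher with remofuscin and 1.26 higher in NC worms. Larval and moulting, intestine and sperm medians were also higher in experiment 2 in both groups. For embryo and neuron genes the sign differed between the groups.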

How the data were processed

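The authors deposited the scanner output of 4 one-colour arrays, with spot intensity corrected for background within each array by Feature Extraction (version 11.5.1.1 in the file headers) and a call of well above background for each spot. A table of log2 values of the same arrays was deposited too, and it is not scaled between arrays. The authors' methods name global normalization, and those normalized values were not used here.

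Control spots and outlier-marked spots were dropped, repeated spots of a probe were averaged, and each array's 75th percentile of the log2 intensity was subtracted. Probes with a call of well above background from at least 2 arrays (29095 of 43603) were tested with limma (3.58.1, R 4.3.3), remofuscin minus NC, two-sided, with Benjamini-Hochberg adjustment over these probes. The estimated prior standard deviation was 0.42, with 6.23 prior degrees of freedom. A WBcel235 gene table gave a symbol to 34320 probes (78.7%). That table also gave the order of neighbouring genes. No coordinates are printed, because the array was designed on another assembly, and probe sequences were not compared, so near-identical genes can share a probe's signal.

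The experiments pair the arrays, as the series' design text gives 2 independent experiments and each title carries its experiment. The deviations of remofuscin and NC arrays from their group means correlated with r = 0.736 and rho = 0.763 over 29061 probes. With the experiment as a block, 1 residual degree of freedom was left and limma gave every probe a common standard deviation of 0.27.

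Members named in the text were those past the limits, the largest rise and fall in each family among members well above background on all 4 arrays that changed alike in both experiments, those with a known role, and those whose probes disagreed by over 1 log2 unit in opposite directions, which held for none. Members, lists and tests were chosen with earlier results of these data known. Where a fold is given for a group not well above background on either array, that group's signals were raised, where lower. The level used was the dimmest signal called well above background on the array in question. Such a fold is an estimate and not a lower bound. Fits were tested on simulated data that held no difference between experiments, so that test does not cover the pairing of the arrays. Other settings tried were scaling by the median, quantile normalization, a normexp correction with an offset of 50 on median signals, the deposited log2 values, 2 other filters, outlier spots kept, all probes of a gene averaged, an intensity trend, the block, the methods' t-test, and each array left out in turn. Figures were made with matplotlib 3.10.9 in Python 3.11.15 (pandas 2.3.3, numpy 2.4.6).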

Additional observations from a re-analysis of the deposited data

How the results depend on the processing

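With 2 arrays per group, their number limits every value. The count of members upregulated at the limits was 2, and it was 0 after normexp background correction, 0 with the methods' t-test and 1 (dhs-23) with the filter that asks for all 4 arrays, which dhs-7 did not pass. Leaving out 1 array at a time gave 1 to 5, with the 5 (dhs-3, dhs-4, dhs-7, dhs-23 and sodh-2) reached without NC replicate 1 and the 1 (dhs-7) without remofuscin replicate 1. The count at an adjusted p under 0.05 was 0 and became 5 with the experiments paired as a replicate block, and 0 to 2 with 1 array left out, of which dhs-7 was one without NC replicate 1, without NC replicate 2 and without remofuscin replicate 2. No member was downregulated at the limits or at an adjusted p under 0.05 under any of these settings. Among tested members the block changed the call of dhs-4, dhs-7, dhs-23, alh-13 and sodh-2 alone. Outside the filter, stdh-2 had an adjusted p of 4.06e-13 with the block and no filter. That gene was well above background on 1 array, so this p rests largely on signals below the detection call. A fit with 1 array left out has a lone array in 1 group, whose spread is taken to equal that of the remaining pair, so its adjusted p takes the spread from that pair and the prior.

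With 1 array left out, the median log2 change ranged from -0.02 to 0.45 over the tested members, from -0.09 to 0.51 over dhs, from -0.11 to 0.21 over alh and from -0.04 to 0.05 over fmo. The fmo median was also -0.05 with median scaling and -0.02 after normexp correction, beside -0.03. The cause was not tested. Leaving out NC replicate 1 moved the median of all tested genes as well, to 0.15. Of the log2 changes of 22 named and tested members under the alternatives, 0 turned past the adjusted threshold in the opposite direction, 212 moved by less than the spread between experiments, 62 moved by more and 9 passed the adjusted threshold.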
